A study of Arabidopsis thaliana with 12 samples.

Results

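Chromatin accessibility at 10 Aux/IAA genes was followed in Arabidopsis thaliana roots that regrow a removed tip. The genes are IAA1 (AT4G14560), IAA2 (AT3G23030), SHY2 (IAA3, AT1G04240), BDL (IAA12, AT1G04550), IAA14 (AT4G14550), AXR3 (IAA17, AT1G04250), IAA19 (AT3G15540), IAA20 (AT2G46990), IAA29 (AT4G32280) and IAA30 (AT3G62100). They were chosen by name, and an accessible region counted as theirs where the authors' tables for 2.5 h or 14 h gave it one of these genes, as the nearest transcription start or in the annotation. This gave 49 of the 156035 regions of the series.

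ATAC-seq reads come from DNA that the transposase Tn5 could reach, so more reads in a region mean that it was more open in the nuclei sampled. Each of 4 groups held 3 libraries from seedlings 7 days after sowing. The regenerating groups were plants carrying the MP::MP-GFP transgene, in which, by its name, the promoter of the auxin response factor gene MP drives MP protein tagged with GFP. About 130 µm of their root tip was removed, and some 200 µm above the wound was taken 2.5 h, 14 h or 16 h later and sorted for GFP. These libraries were made from 1000 nuclei each, except 16 h replicate 3, which used 2000. The uncut group was Col-0 without the transgene, a root piece of the same size, stained with DAPI, and 50000 nuclei per library. Plant line, sort and number of nuclei therefore changed together with excision in every comparison with uncut roots, and their parts cannot be told apart from that of the wound. A changed share of a cell type and a changed accessibility per cell also cannot be told apart in such bulk libraries. Nothing in the labels says that replicates were separate batches of plants, so p-values measure the spread between these libraries.

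Aux/IAA proteins are short-lived repressors. They bind auxin response factors (ARFs) on the promoters of auxin-responsive genes and recruit TOPLESS co-repressors there. Auxin joins them to the TIR1/AFB receptors, which leads to their destruction and frees the ARFs. Many Aux/IAA genes are themselves auxin-responsive, so the family both reads and limits the hormone signal. In roots its members act in tip growth, gravitropism, root hair and lateral root formation.

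Depth differed between groups: 22.5 to 31.8 M reads in regions for an uncut library, 1.83 to 4.78 M at 2.5 h, 10.7 to 17.3 M for 14 h and 1.44 to 2.35 M for 16 h. Levels are given as CPM, reads brought to 1 depth by TMM over the regions that all groups share, and summed over the regions of a gene. A count of 0 allows up to 3 counts, which was 0.119 to 0.161 CPM in uncut libraries, 0.685 to 1.65 CPM at 2.5 h, 0.251 to 0.410 CPM at 14 h and 1.63 to 2.46 CPM at 16 h. Of the 96 values that the 32 shared member regions gave at 2.5 h, 28 were 0 (29.2%), beside 31.0% for all shared regions. None of the member values was 0 in the other groups, where 4.16% of all values at 14 h and 5.37% at 16 h were. MP is the gene whose product marked the sort. It had 152, 158 and 146 CPM in uncut roots, and from 203 to 402 CPM in the 9 regenerating libraries, all of them above every uncut one. Reads from the transgene and from the MP locus could not be told apart.

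The 49 regions lay at 3 to 7 per gene, 32 of them within 1 kb of the nearest transcription start. By the authors' annotation, 19 were exonic, 11 were at promoters, 10 at transcript ends and 9 intergenic, and none was intronic. Exons held 38.8% of them and promoters 22.4%, beside 37.8% and 24.5% of all annotated regions. The set of regions counted in uncut libraries held 33 of the 49, and 32 were counted in every group. The remaining one, the region 90 bp upstream of the IAA19 start (TAIR10, chr3:5263816-5264006), was not counted at 2.5 h. A further 14 were found in the 14 h set alone and 2 in the 2.5 h set alone. The 16 h libraries were counted on the same 107842 regions as the uncut ones, so reads outside these are not known at 16 h. Sets were matched by exact coordinates, so a region of 1 set alone can overlap a region of another set. Some regions stand between genes: the longest, 926 bp given to BDL (chr1:1238114-1239039), lies in the exon of AT1G04540, and the transcript-end region of IAA29 (chr4:15585501-15585650) lies 132 bp into AT4G32285. A shared IAA30 region 2137 bp past its start (chr3:22997853-22997976) lies in an exon of AT3G62110. An IAA20 region 950 bp past its start is annotated as the transcript end of AT2G47000. IAA14 and IAA1 are neighbours, as are SHY2 and AXR3.

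Per kb of region, the members lay close together in uncut roots. IAA20 had the highest level, 76.6 ± 7.03 CPM per kb (SD, n = 3), then IAA2 with 68.1 ± 9.46, BDL with 61.4 ± 2.03, IAA29 with 60.4 ± 1.55, IAA19 with 57.4 ± 2.45, IAA14 with 56.9 ± 1.07, AXR3 with 54.9 ± 2.23, IAA30 with 54.5 ± 1.3, SHY2 with 51.7 ± 5.76 and IAA1 with 50.1 ± 6.23. No neighbours in this order differed by more than their summed SDs. At 16 h IAA2 came first with 115 ± 26.6 CPM per kb and IAA30 second with 88.0 ± 9.90, and BDL last with 48.4 ± 19.9.

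IAA1 and IAA2 are known as genes that auxin switches on within minutes. IAA1 had 12.9, 10.2 and 11.1 CPM in uncut replicates 1 to 3, 12.3, 0 and 13.7 at 2.5 h, 23.0, 17.7 and 11.2 at 14 h, then 17.5, 19.1 and 17.2 at 16 h. All 3 libraries at 16 h lay above the uncut ones, while 14 h overlapped them through replicate 3. IAA2 had 22.0, 24.8 and 29.0 CPM in uncut roots, 19.2, 32.7 and 22.5 at 2.5 h, 42.6, 40.3 and 28.6 at 14 h, then 47.6, 49.0 and 31.2 at 16 h. The 16 h libraries were again all above uncut roots, and 14 h replicate 3 stood just below the highest uncut library.

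SHY2 is known for restraining auxin signalling where root meristem cells start to differentiate. It had 28.0, 34.8 and 33.3 CPM in uncut roots, 40.0, 14.3 and 20.9 at 2.5 h, 66.6, 43.2 and 37.0 at 14 h, then 44.8, 26.7 and 50.9 at 16 h. The 14 h libraries lay above all uncut ones, and the 16 h libraries did not. IAA14, a repressor of lateral root initiation, had 40.8, 42.4 and 41.8 CPM in uncut roots, 21.5, 48.1 and 25.3 at 2.5 h, 31.7, 51.9 and 38.2 at 14 h, then 25.2, 48.4 and 37.8 at 16 h. Its uncut libraries sat inside the range of every regenerating group. AXR3, known from gravitropism and root hair growth, had 28.5, 26.7 and 26.5 CPM in uncut roots, 63.5, 4.13 and 8.24 at 2.5 h, 35.8, 25.2 and 48.1 at 14 h, then 26.6, 51.2 and 25.5 at 16 h. Its 2.5 h libraries spread the widest relative to their mean of the 10 genes there, and all its groups overlapped. IAA19, which acts in tropic bending, had 41.3, 40.0 and 43.5 CPM in uncut roots, 11.9, 36.4 and 35.2 at 2.5 h, 56.7, 44.1 and 49.9 at 14 h, then 49.7, 68.0 and 39.4 at 16 h. It lay below uncut roots in all 3 libraries at 2.5 h and above them in all 3 at 14 h.

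BDL is the repressor that binds MP and, in a stabilised form, blocks formation of the embryonic root. It had 84.2, 80.9 and 78.9 CPM in uncut roots, 54.6, 81.1 and 48.9 at 2.5 h, 59.7, 55.5 and 78.8 at 14 h, then 53.9, 94.2 and 44.4 at 16 h. In uncut roots 68.5% of this level came from the region in the exon of AT1G04540. At 14 h all 3 libraries were below the uncut ones, the third by a small margin. Replicate 2 lay within the uncut range at 2.5 h and above it at 16 h.

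IAA20 and IAA30 lack the degron through which auxin destroys other family members, and both are known from the root vasculature. IAA20 had 24.2, 22.7 and 20.2 CPM in uncut roots, 29.0, 8.64 and 7.70 at 2.5 h, 12.6, 18.8 and 22.4 at 14 h, then 24.5, 26.1 and 6.57 at 16 h, so every group overlapped the uncut one. IAA30 had 31.4, 32.9 and 32.5 CPM in uncut roots, 17.4, 33.4 and 89.0 at 2.5 h, 48.9, 47.6 and 35.1 at 14 h, then 45.5, 56.6 and 54.2 at 16 h. Its 14 h and 16 h libraries were all above uncut roots, and its 2.5 h libraries fell on both sides. IAA29, best known as a target of PIF transcription factors in shade and warmth, had 29.4, 29.9 and 28.4 CPM in uncut roots, 23.3, 24.0 and 0 at 2.5 h, 44.6, 39.8 and 44.0 at 14 h, then 28.0, 40.3 and 36.1 at 16 h. All its 14 h libraries were above uncut roots and all its 2.5 h libraries below, while 16 h replicate 1 overlapped the uncut range.

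**Figure D1:**
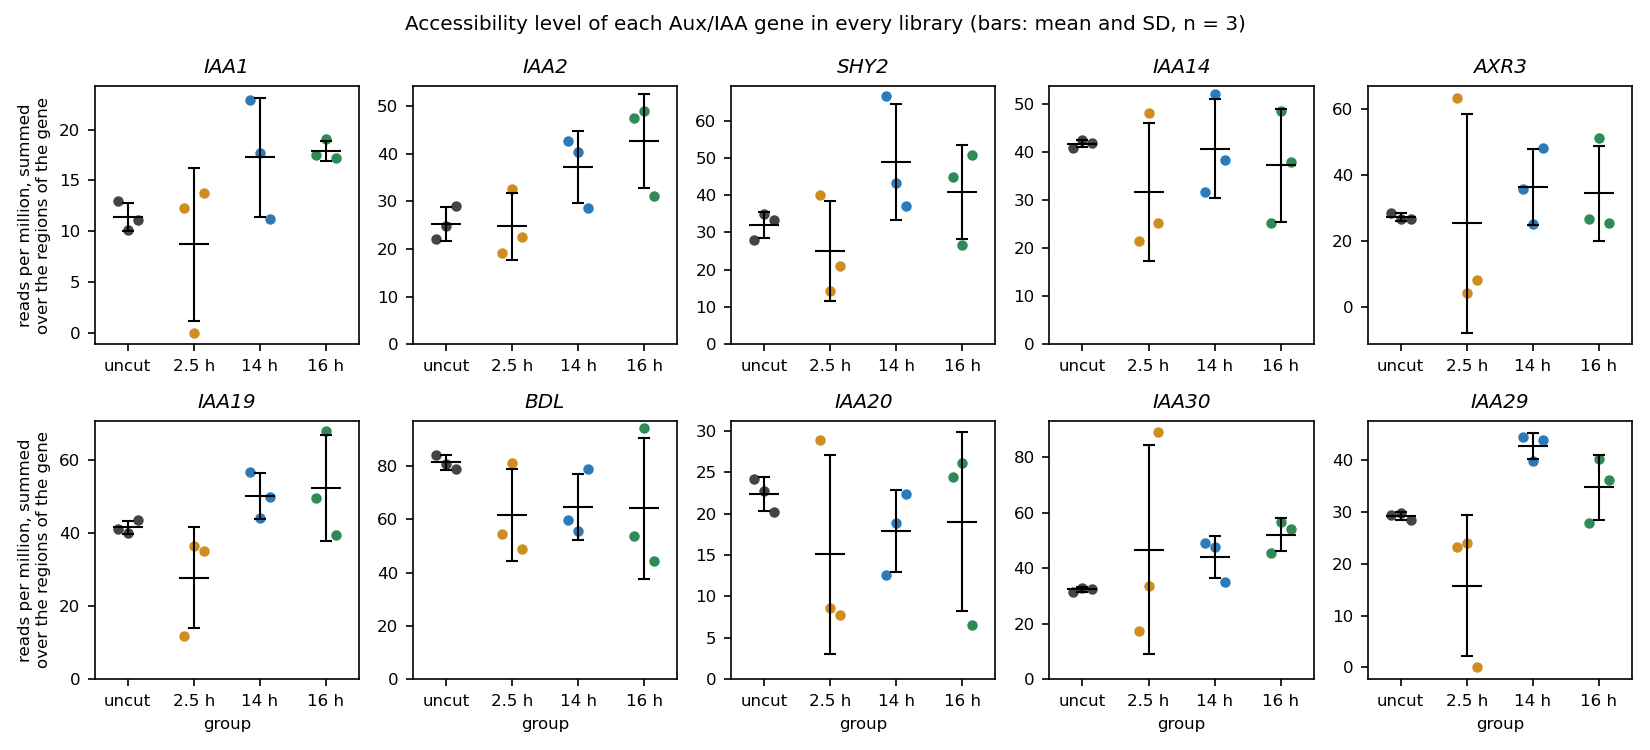
Level of each of the 10 Aux/IAA genes in CPM, summed over its regions, with 1 point per library in the uncut, 2.5 h, 14 h and 16 h groups and bars for the mean and SD (n = 3). Uncut libraries cluster tightly, the 2.5 h libraries spread widely, and IAA29 at 14 h (39.8 to 44.6 CPM) and IAA30 at 16 h (45.5 to 56.6 CPM) lie wholly above uncut roots.

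The first comparison asks what differed 2.5 h after excision. None of the 10 genes passed the threshold, an adjusted p under 0.05 in edgeR's quasi-likelihood test over 30010 genes, of which 0.323% passed. None had an unadjusted p under 0.05 (10.8% of all genes did), and DESeq2 called none of them either, beside 8.85% of all genes. Fitted log2 fold changes ran from -0.62 ± 1.03 (SE) for IAA29 to 0.87 ± 0.61 for IAA30. Without 2.5 h replicate 3 these were -0.0661 and -0.11, and without replicate 1 or 2 IAA29 was at -0.97 or -0.99. Their median was -0.08, beside 0.00 for all genes. In CPM, IAA19 and IAA29 were below uncut roots in every library, as were 28.6% of all genes, whose median log2 ratio on that scale was -0.29. The error at this time was large: IAA1, at 0 in replicate 2, had a log2 fold change of -0.06 ± 1.23. Single regions gave the same count, 0 of the 32 tested, while 7.75% of 103746 regions passed. Of the 32, 1 had an unadjusted p under 0.05 and DESeq2 called 0, beside 12% and 5.91% of all regions. The median over the member regions was -0.23, beside -0.38 for all regions, which was -0.22 with DESeq2's size factors and -0.063 with total counts.

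Roots 14 h after excision were the next to be compared with uncut ones. IAA29 was higher by 0.50 ± 0.14 on the log2 scale (edgeR, adjusted p = 0.0493), 42.8 ± 2.60 against 29.2 ± 0.752 CPM. It was the only one of the 10 members to pass, beside 12.1% of 30099 genes in either direction and 3.66% called higher. Of all calls 30.4% were higher, and 52.5% when libraries were scaled by total counts, which moved the median of all genes from 0.03 to 0.13. The call was lost without any 1 of the 3 uncut libraries (adjusted p 0.214 to 0.218), and it held without each 14 h library. It was also lost with sums limited to regions within 1 kb of a start (edgeR, adjusted p = 0.0752). All shared IAA29 regions lie within 1 kb of an annotated start. The counts of IAA29 were thus the same in that setting, and only the rest of the fit differed. Over all the settings tried, its adjusted p ran from 0.00677 with DESeq2 to 0.999 with all 12 libraries in the fit.

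The other members did not pass at 14 h. An unadjusted p under 0.05 was found for 5 of the 10, beside 29.5% of all genes, and DESeq2 called 1 of them, IAA29, beside 20.1%. Their log2 fold changes were 0.56 ± 0.22 for SHY2, 0.54 ± 0.30 for IAA1, 0.51 ± 0.20 for IAA2, 0.39 ± 0.17 for IAA30, 0.37 ± 0.23 for AXR3, 0.33 ± 0.14 for IAA19, -0.09 ± 0.19 for IAA14, -0.36 ± 0.24 for IAA20 and -0.38 ± 0.14 for BDL. Limited to regions within 1 kb of a start, BDL was at -0.24 (edgeR, adjusted p = 0.400) and IAA30 at 0.71 (0.138). The values of 7 of the 10 were above 0, with a median of 0.38, beside 53.0% of all genes and a median of 0.03. These values are relative to TMM over regions shared by both groups. The authors' deposited values for the members' shared regions stood lower, as given below. Levels of IAA19, IAA29, IAA30 and SHY2 were above uncut roots in every library, a pattern that 20.8% of all genes showed, and BDL was below in every library, like 17.5% of all genes. Several values rested on 1 library of this group. Without replicate 1, SHY2 was at 0.27, IAA1 at 0.28 and IAA20 at -0.16. AXR3 was at 0.57 without replicate 2 and 0.11 without replicate 3, when IAA20 was at -0.56. IAA14 stayed between -0.31 and 0.0585. Without replicate 3, IAA2 was at 0.67 (edgeR, adjusted p = 0.0393), IAA30 at 0.53 (0.0294) and BDL at -0.55 (0.0180), each then past the threshold, and without replicate 2 so was IAA19, at 0.45 (0.0287).

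At 16 h, IAA30 was higher than in uncut roots by 0.68 ± 0.15 on the log2 scale (edgeR, adjusted p = 0.0226) and IAA2 by 0.76 ± 0.21 (adjusted p = 0.0460). The levels were 52.1 ± 5.86 against 32.3 ± 0.773 CPM and 42.6 ± 9.88 against 25.3 ± 3.51 CPM. These were 2 of 10 members, beside 9.5% of 30117 genes in either direction and 3.18% called higher. Of all calls 33.5% were higher, and 47.2% under scaling by total counts. Without any 1 uncut library both calls were lost, at adjusted p 0.140 to 0.163 for IAA30 and 0.136 to 0.256 for IAA2. IAA2 was also lost without 16 h replicate 1 (0.0824) or 2 (0.0589). With sums limited to regions within 1 kb of a start, IAA30 stood at 1.03 (edgeR, adjusted p = 0.0129) and IAA2 at 0.74 (0.0518). All shared IAA2 regions lie within that distance, so for IAA2 the limit left the counts unchanged and only the rest of the fit differed. Adjusted p over all settings ran from 1.55e-05 (DESeq2) to 0.916 (12 libraries) for IAA30 and from 0.00552 to 0.625, under the same settings, for IAA2.

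Of the remaining 8 genes, IAA1 stood at 0.65 ± 0.24 (edgeR, adjusted p = 0.111), which DESeq2 called (adjusted p = 0.0362). AXR3 had 0.36 ± 0.24, IAA19 0.35 ± 0.16, SHY2 0.32 ± 0.24, IAA29 0.25 ± 0.18, IAA14 -0.16 ± 0.20, IAA20 -0.19 ± 0.33 and BDL -0.33 ± 0.22, none past the threshold. The 16 h replicate 2 stood highest of its group for 9 of the 10 members and lowest for SHY2. Without it BDL was at -0.71 (edgeR, adjusted p = 0.00661) and SHY2 at 0.59 (0.0468), both past the threshold, while AXR3 was at -0.05, IAA19 at 0.18, IAA29 at 0.14 and IAA20 at -0.46. Without replicate 3, SHY2 was at 0.11, BDL at -0.14 and IAA20 at 0.16, and without replicate 1 SHY2 was at 0.20, BDL at -0.21, IAA29 at 0.38, IAA20 at -0.35 and IAA14 at 0.0512. An unadjusted p under 0.05 was found for 4 of the 10, beside 27.9% of all genes, and DESeq2 called 3, beside 19.8%. Again 7 of 10 values were above 0, with a median of 0.33 beside 0.03 for all genes. IAA1, IAA2 and IAA30 were above uncut roots in every library, as were 15.4% of all genes. IAA29 passed at 14 h and not at 16 h, but its difference between those times was -0.26 ± 0.30 and did not pass, so the 2 times are not shown to differ for it.

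**Figure D2:**
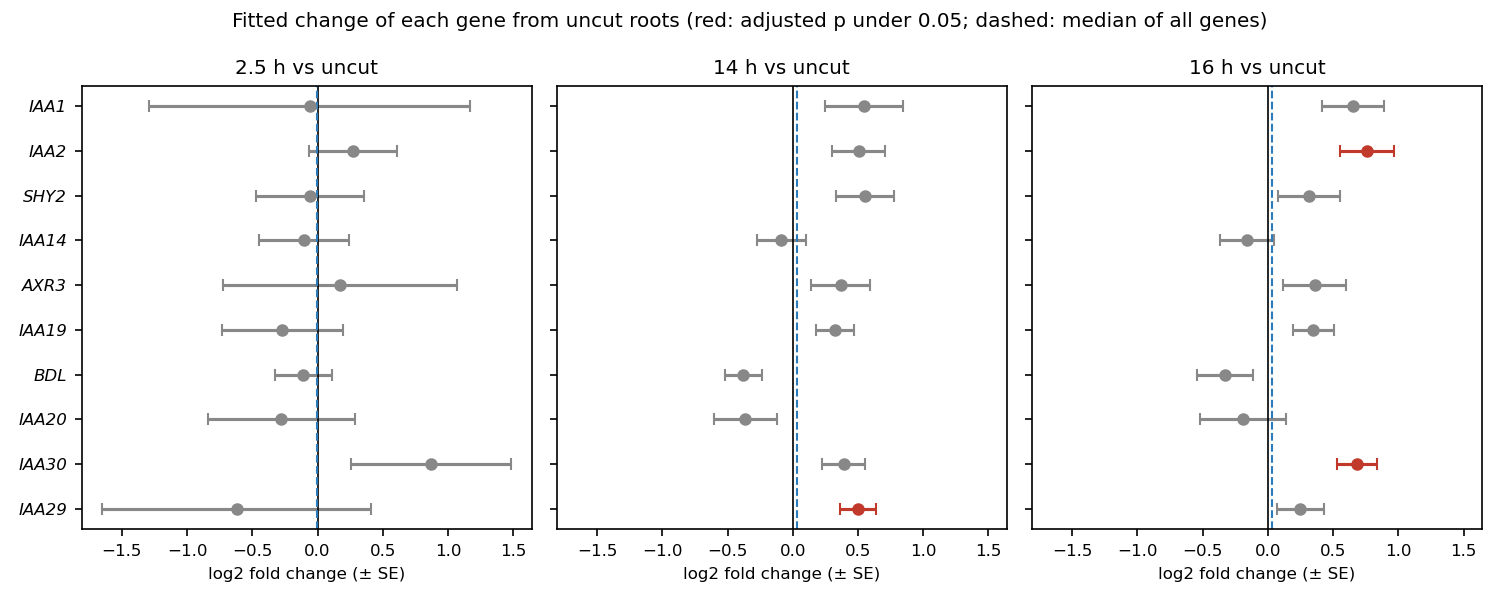
Fitted log2 fold change (± SE) of each of the 10 genes at 2.5 h, 14 h and 16 h against uncut roots (3 libraries a group). Red points passed an adjusted p under 0.05, and the dashed line is the median of all genes. IAA29 at 14 h and IAA2 and IAA30 at 16 h are red, and BDL, IAA20 and IAA14 lie below 0 at both of the later times.

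Between the times after excision, where line and sort were shared, no member passed at the level of the gene. The share of genes that passed was 0% in each comparison, for 14 h against 2.5 h, 16 h against 2.5 h and 16 h against 14 h. At an unadjusted p under 0.05 edgeR had 1737, 1242 and 1338 genes, none of them a member, and DESeq2 called 512, 118 and 1 genes, again with no member. From 2.5 h to 14 h the members ran from -0.45 ± 0.57 for IAA30 to 1.14 ± 0.91 for IAA29 on the log2 scale, and from 2.5 h to 16 h from -0.25 ± 0.37 for BDL to 0.86 ± 0.94 for IAA29. The first of these values rests on 2.5 h replicate 3, without which it was 0.53. From 14 h to 16 h they ran from -0.26 ± 0.30 for IAA29 to 0.28 ± 0.27 for IAA30. Of the member regions 31, 28 and 33 were tested in these comparisons and none passed in edgeR, beside 0%, 0% and 0.00104% of all regions. At an unadjusted p under 0.05 there were 2, 2 and 1 of them, beside 5.12%, 2.28% and 3.33% of all regions, and DESeq2 called 0 in each, beside 1.49%, 0.724% and 0.002%. These comparisons with 2.5 h share their 2.5 h libraries, and those with uncut roots share the uncut libraries.

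The regions were also tested singly, though not against each other within a gene. At 16 h, 3 of 33 member regions passed in edgeR, all higher, beside 9.66% of 107749 regions in either direction and 3.07% called higher. DESeq2 called 4, these and an AXR3 region, beside 17.4% of all regions, and 7 had an unadjusted p under 0.05 in edgeR, beside 24.9%. All 3 that edgeR called were exonic. The IAA2 region 540 bp past the start (chr3:8181302-8181324, 23 bp, exon 2) had 1.82, 2.15 and 2.47 CPM in uncut roots, 0.228, 1.5 and 0 at 2.5 h, 7.93, 1.32 and 5.78 at 14 h, then 6.29, 12 and 13.1 at 16 h. It was higher at 16 h by 2.26 ± 0.37 on the log2 scale (edgeR, adjusted p = 0.00309), with every 16 h library above every uncut one. This call was lost without uncut replicate 1 (0.0566) or 2 (0.0503). The 16 h values rest on 9, 22 and 16 reads.

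The IAA2 region in exon 1 (chr3:8181618-8181684, 202 bp past the start) had 3.48, 3.46 and 3.66 CPM in uncut roots, 9.36, 8.26 and 2.75 at 2.5 h, 2.32, 9.88 and 3.35 at 14 h, then 16.8, 10.9 and 4.93 at 16 h. It was higher at 16 h by 1.62 ± 0.39 (edgeR, adjusted p = 0.0231), from 24, 20 and 6 reads. That call did not hold without 16 h replicate 1 (0.0776) or without any uncut library (0.189 to 0.222). The strongest region of IAA2, by mean CPM over all 12 libraries as for the other genes, was at its promoter (chr3:8181836-8182027, 78 bp upstream). It had 11.2, 12.8 and 17.0 CPM in uncut roots and 19.6, 14.2 and 4.93 at 16 h. Its log2 fold change was -0.07 ± 0.38, and that of the fourth shared region, 724 bp past the start, 0.51 ± 0.36.

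For IAA30 the strongest region over the 12 libraries was in exon 1 (chr3:22995879-22996061, 193 bp past the start), with 9.49, 10.9 and 10.3 CPM in uncut roots, 6.16, 19.9 and 17.0 at 2.5 h, 26.4, 10.9 and 10.4 at 14 h, then 25.9, 26.1 and 15.6 at 16 h. It was higher at 16 h by 1.13 ± 0.26 (edgeR, adjusted p = 0.0197), in all 3 libraries, and this was lost without any uncut library (0.156 to 0.190). The region 1444 bp upstream had the higher mean in uncut roots (12.3 against 10.2 CPM) and at 2.5 h (18.6 against 14.4 CPM). Its promoter region, 102 bp upstream of the start, had 4.86, 3.51 and 3.77 CPM in uncut roots against 8.34, 8.43 and 8.88 at 14 h, with no overlap. That change, 1.05 ± 0.30, missed the threshold in edgeR (adjusted p = 0.0889) and passed it in DESeq2 (0.00213).

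At 14 h, 0 of 33 member regions passed in edgeR, beside 6% of 101666 regions, and 4 had an unadjusted p under 0.05, beside 21.9% of all regions. DESeq2 called 3 of the 33, beside 18.8% of all regions. Besides the IAA30 promoter region these were the SHY2 region 1852 bp upstream of its start, higher by 0.95, and the IAA20 region in exon 1, lower by 0.56. The SHY2 region (chr1:1131466-1131616) is the strongest of that gene, with 8.46, 12.2 and 10.9 CPM in uncut roots and 26.2, 13.6 and 22.1 at 14 h, and did not overlap. The IAA20 exon region (chr2:19307903-19308121) had 18.7, 15.7 and 15.7 CPM in uncut roots and 9.71, 13.3 and 11.6 at 14 h, also without overlap. In the authors' deposited table, adjusted p was under 0.05 for 3 of the 33, beside 20.5% of all regions of the uncut set: the IAA20 exon region with a log2 fold change of -0.92, and the BDL regions 1718 bp upstream, with -0.79, and in exon 1, with -0.71. All 33 log2 fold changes were lower there than in edgeR. The IAA29 regions in exon 1, exon 2 and at the transcript end were at 0.15, 0.42 and -0.04, beside 0.51, 0.79 and 0.33 in edgeR. The IAA19 exon 1 region was at 1.9e-05 beside 0.37. That table also covers the regions of the 14 h set alone, and the reason for the shift was not tested.

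Of the 3 shared regions of IAA29, the one in exon 1 (chr4:15583540-15583715) had 10.3, 9.22 and 9.14 CPM in uncut roots, 0.685, 4.51 and 0 at 2.5 h, 8.20, 11.3 and 21.8 at 14 h, then 7.69, 25.6 and 25.5 at 16 h. The one at its transcript end, shared with AT4G32285, had 11.8, 12.1 and 11.9, then 17.4, 4.88 and 0, then 20.4, 12.1 and 13.5, and 9.09, 7.08 and 0.821 CPM in the same order. At 14 h the first was at 0.51 ± 0.37, the second at 0.33 ± 0.25 and the third, 695 bp past the start, at 0.79 ± 0.30 on the log2 scale. At 16 h they were at 1.01 ± 0.36, -1.03 ± 0.44 and 0.26 ± 0.31. None passed at either time, and the difference between regions was not tested.

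**Figure D3:**
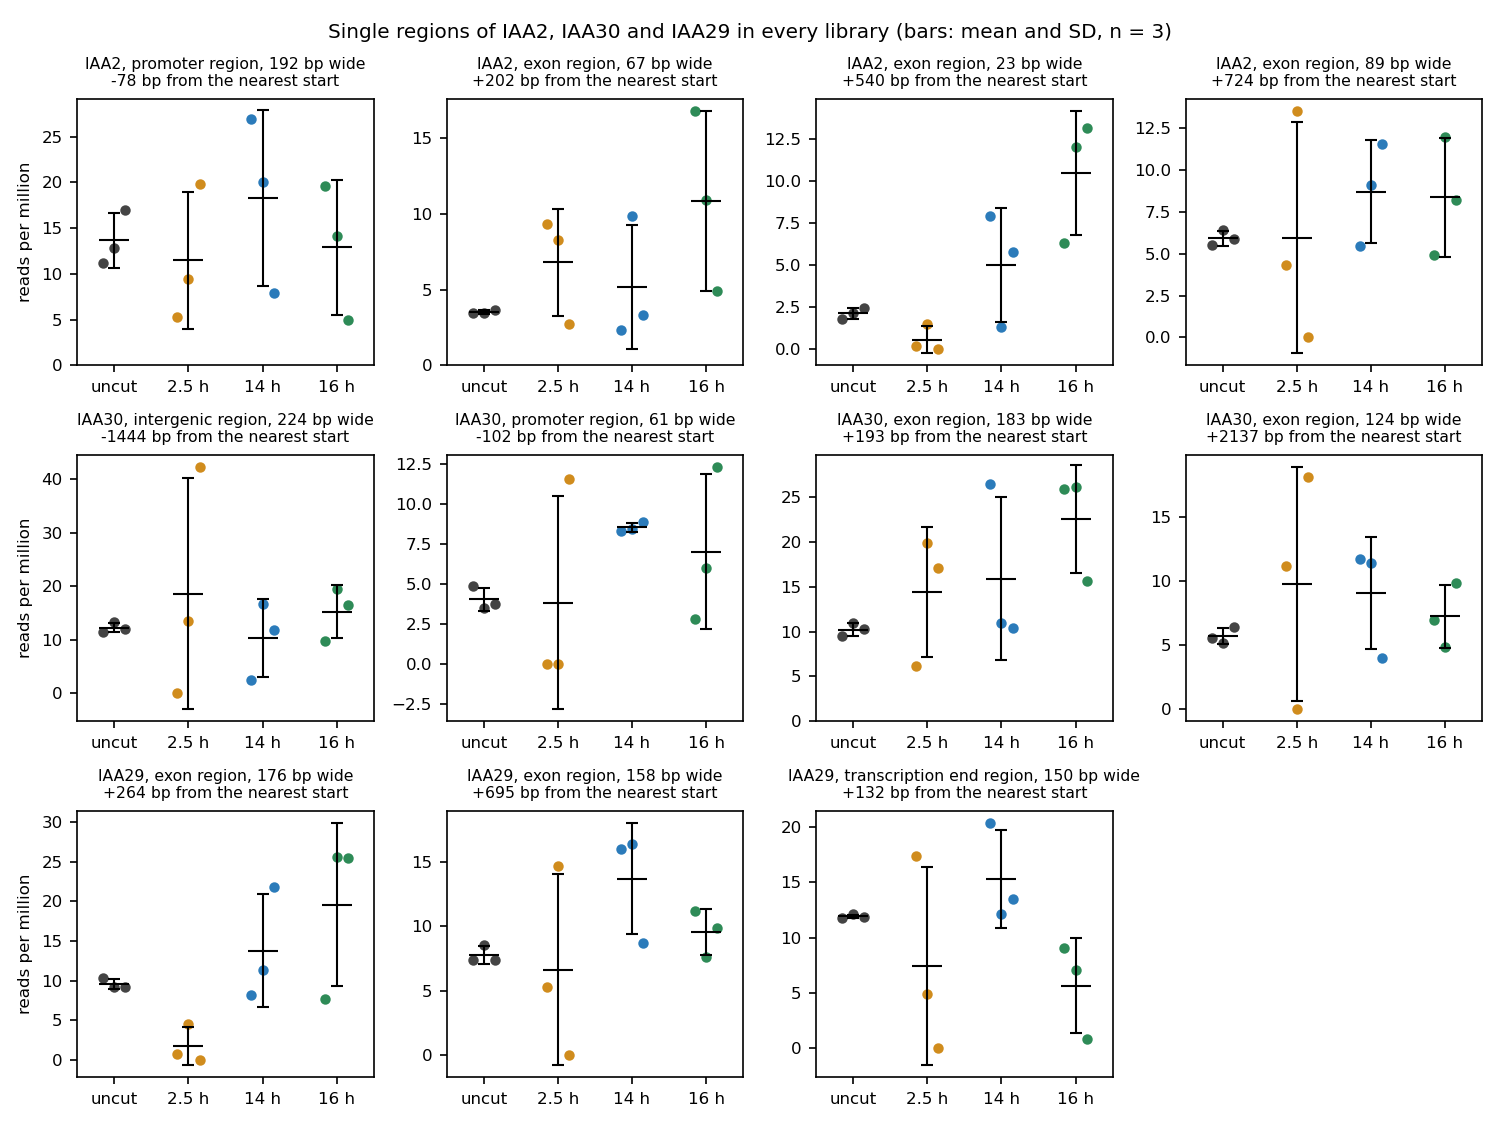
CPM of the shared regions of IAA2, IAA30 and IAA29 in every library (bars: mean and SD, n = 3), each titled by its distance from the nearest annotated start. The IAA2 regions at 202 and 540 bp and the IAA30 region at 193 bp lie above uncut roots in all 3 libraries at 16 h, while the IAA2 promoter region overlaps uncut roots.

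None of the strongest regions of the other members passed in edgeR against uncut roots. The BDL region 1718 bp upstream had 57.4, 55.0 and 54.8 CPM in uncut roots, 36.6, 32.5 and 56.8 at 14 h, then 31.5, 71.3 and 31.2 at 16 h. The IAA19 region in exon 1 (chr3:5264153-5264513) had 22.6, 20.6 and 23.7 CPM in uncut roots, 2.97, 12.8 and 18.7 at 2.5 h, 39.6, 25 and 23.5 at 14 h, then 23.8, 42.5 and 26.3 at 16 h. The AXR3 region in exon 1 (chr1:1136350-1136592) had 11.9, 13.2 and 13.4 CPM in uncut roots and 14.7, 27.8 and 18.9 at 16 h. The 16 h values of AXR3 and IAA19 were all above uncut roots. Neither passed in edgeR, and DESeq2 called the AXR3 region (0.69, adjusted p = 0.0449). For IAA14 the strongest region was in exon 2 (chr4:8349264-8349531), and for IAA1 it was at the promoter, 121 bp upstream (chr4:8360802-8360948). IAA14 also held the member region that stood lowest at 2.5 h, at its transcript end (chr4:8348973-8349115), with 225, 169 and 136 reads in uncut roots and 0, 0 and 2 at 2.5 h. It was at -4.73 in edgeR (adjusted p = 0.241) and at -4.91 with an adjusted p of 0.0124 in the authors' deposited table.

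Over all member regions, the 6 at promoters all had log2 fold changes above 0 at 14 h, with a median of 0.64 beside 0.14 for all promoter regions, and none of the 6 passed in edgeR. At 16 h 5 of the 6 were above 0, and their median was 0.43, beside 0.049. At 2.5 h 0 of the 5 tested were above 0, with a median of -0.26 beside -0.37. For 16 h against 14 h 0 of the 6 were, with -0.32 beside -0.07. The share of all promoter regions above 0 was not taken. Exonic members had medians of 0.44 at 14 h and 0.16 at 16 h, beside 0.10 and 0.06 for all exonic regions. The 5 at transcript ends had a median of 0.30 at 14 h and -0.45 at 16 h, beside 0.07 and 0.03. The 4 intergenic ones had 0.35 and 0.34, beside -0.74 and -0.53. No test of these medians was made.

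**Figure D4:**
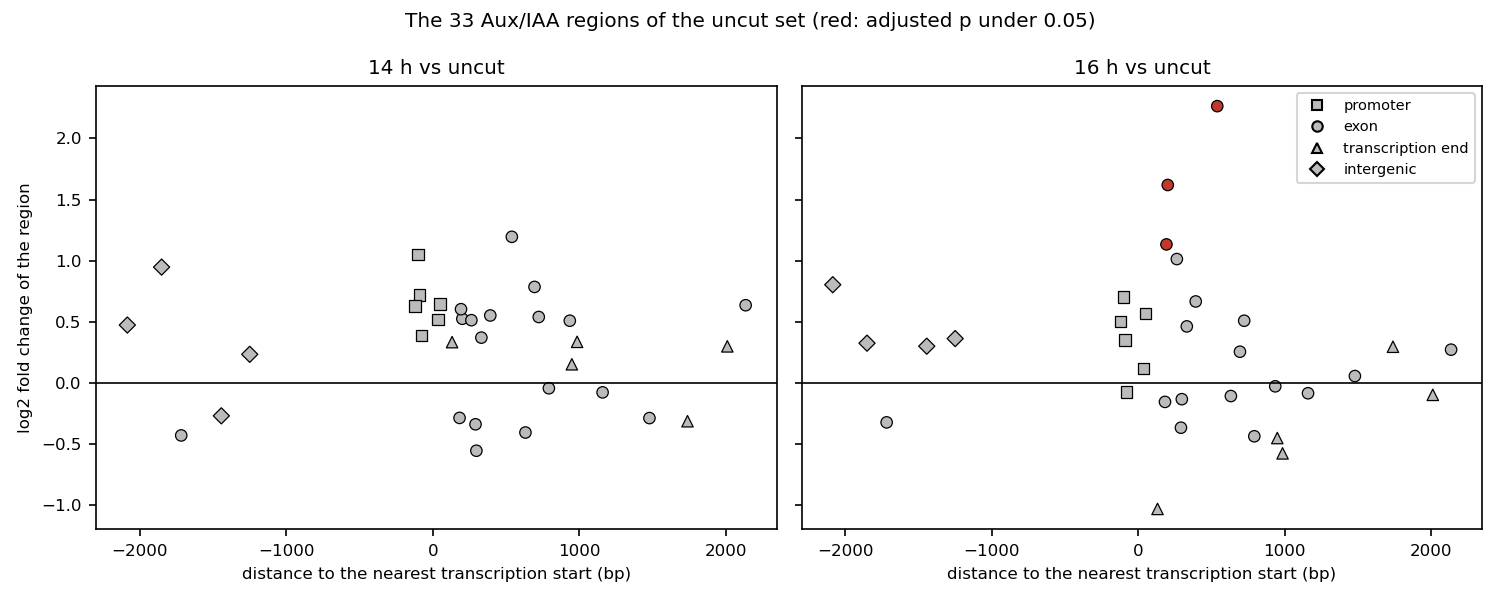
Log2 fold change of the 33 member regions of the uncut set at 14 h and 16 h against uncut roots, plotted against the distance to the nearest annotated start, with symbols for the kind of region. Red points passed an adjusted p under 0.05: none at 14 h, and at 16 h the IAA2 regions at 202 and 540 bp and the IAA30 region at 193 bp.

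The 14 regions of the 14 h set alone were short, 2 to 73 bp with a median of 37 bp, beside 158 bp for the 33 member regions of the uncut set. Such regions made up 29.8% of the member regions in the 14 h set and 25.7% of the whole set. They were found from 14 h reads, so a higher level at 14 h had to be met and is given as a description. Reads recovered from the deposited signal were 7, 7 and 10 in the uncut libraries and 80, 53 and 99 at 14 h for the IAA14 region 768 bp upstream of its start, which had the smallest adjusted p of the 14. The IAA1 region 2877 bp upstream had 12, 12 and 21 against 104, 59 and 134 reads, and that of AXR3, 2 bp in exon 1, had 3, 7 and 6 against 58, 34 and 66. At the low end, the region at the transcript end of IAA29 had 100, 103 and 87 against 100, 53 and 139 reads. Of the 14, 11 were called higher in edgeR, beside 72.4% of all 34576 tested regions of this kind. Regions in the 2.5 h set alone were 1 for IAA1, with 42, 16 and 18 reads, and 1 for IAA20, with 43, 30 and 49. They were listed in the authors' deposited table with log2 fold changes of 4.32 and 3.37, but that table holds only regions past its threshold. The IAA1 region (chr4:8358215-8358228) lies inside an IAA1 region of the 14 h set alone (chr4:8358208-8358244). This stretch was therefore found at both times, with different borders.

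**Figure D5:**
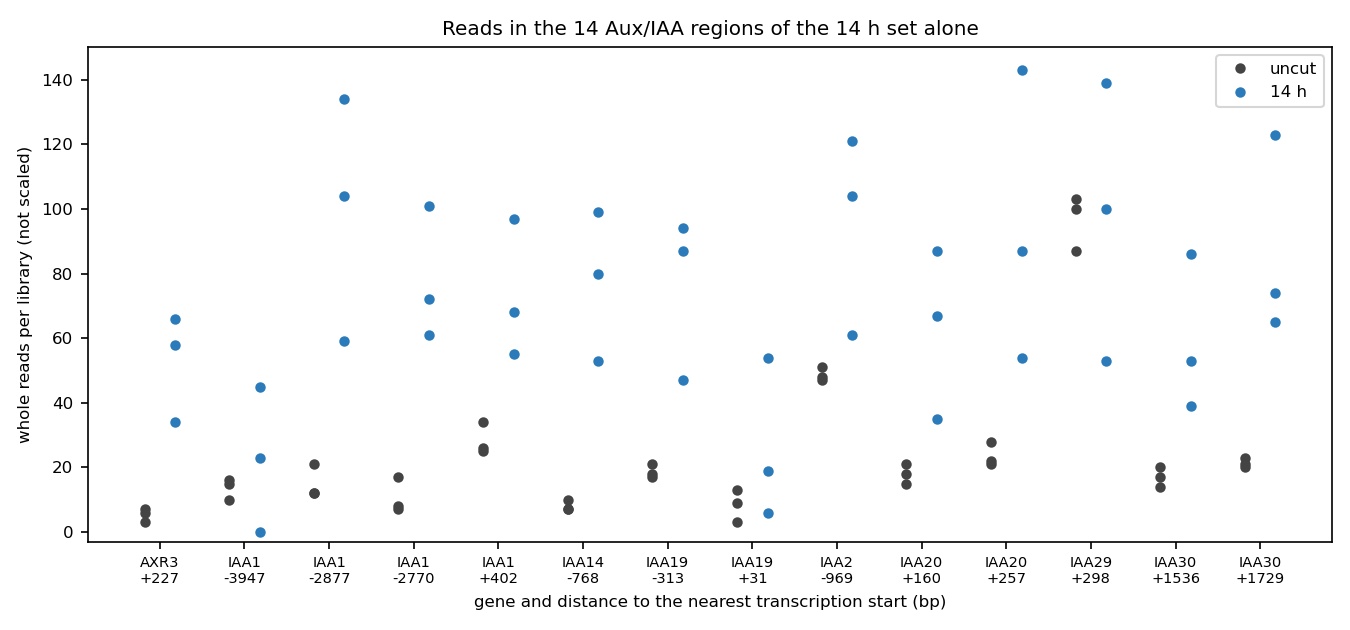
Whole reads, not scaled for depth, in each of the 14 member regions found in the 14 h set alone, for the 3 uncut (dark) and 3 14 h (blue) libraries, labelled by gene and distance to the nearest annotated start. Most 14 h libraries lie above the uncut ones although uncut libraries are deeper. The IAA29 region, the IAA1 region at -3947 bp and the IAA19 region at 31 bp overlap.

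The rest of the auxin response pathway was described from lists. Of 19 other Aux/IAA genes, 2 rose and 1 fell at 14 h against uncut roots, beside the 12.1% of all genes called then: IAA28 by 0.88 ± 0.20 (edgeR, adjusted p = 0.0266), IAA26 by 0.81 ± 0.19 (0.0298) and IAA32 by -0.54 ± 0.13 (0.0332). None passed at 16 h, when 9.5% of all genes did. An unadjusted p under 0.05 in edgeR was found for 8 of the 19 at 14 h and 7 at 16 h, beside 29.5% and 27.9% of all genes. DESeq2 called 7 and 6 of them, beside 20.1% and 19.8%. Their medians were 0.13 at 14 h and -0.12 at 16 h, beside 0.38 and 0.33 for the 10 members. None of the 6 TIR1/AFB co-receptors or the 5 TOPLESS co-repressors passed against uncut roots at any time, with 0 at an unadjusted p under 0.05 and 0 called by DESeq2, and their medians at 14 h were 0.04 and -0.04. Of 5 activator ARFs only MP passed, higher by 1.24 ± 0.10 at 14 h and 1.15 ± 0.17 at 16 h (edgeR, adjusted p = 0.000120 and 0.00313), at a locus also present in the transgene. Of 7 GH3 genes, which encode enzymes that conjugate auxin to amino acids, GH3.1 fell at 14 h by 0.69 ± 0.11 (edgeR, adjusted p = 0.00565). At 16 h GH3.2 and GH3.4 fell, by 0.57 ± 0.14 (0.0347) and 0.59 ± 0.16 (0.0447). The GH3 medians were -0.33 and -0.40. Of the 7 GH3 genes 4 had an unadjusted p under 0.05 in edgeR at each time. DESeq2 called 2 of them at 14 h and 4 at 16 h, beside the same shares of all genes. No gene of these lists passed at 2.5 h in edgeR, where 1 activator ARF had an unadjusted p under 0.05 and was called by DESeq2.

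Some markers of cell types differed in the same comparisons. Beside them, edgeR called 12.1% of all genes at 14 h and 9.5% at 16 h. An unadjusted p under 0.05 was found for 29.5% and 27.9%, and DESeq2 called 20.1% and 19.8%. The summed level of 5 endodermis and cortex markers was 358 to 410 CPM in uncut roots, 285 to 304 at 14 h and 258 to 298 at 16 h, and 2 of the 5 (ESB1 and CO2) were lower at both times. SCR and CASP1 had values below 0 at both times and did not pass. MYB36 went the other way at 14 h, with 0.44 (edgeR, adjusted p = 0.263), and had -0.0072 at 16 h. Of 7 epidermis and root hair markers GL2 was lower at both times and no other passed. WER, CPC and RHD6 had values above 0 at both times, CPC with 0.64 at 14 h and 0.96 at 16 h (edgeR, adjusted p = 0.0670 and 0.0923). EXPA7, COBL9 and PRP3 had values below 0, and the summed level of the 7 was 393 to 428 CPM in uncut roots, 334 to 344 at 14 h and 347 to 362 at 16 h. The sum of 10 stele markers was 665 to 718 CPM in uncut roots, 650 to 761 at 14 h and 723 to 797 at 16 h, with none past the threshold in edgeR, 1 at an unadjusted p under 0.05 at each time and 1 (SHR, at 14 h) called by DESeq2. Of 4 root cap markers 1, FEZ, was higher at 14 h and none passed at 16 h. Values above 0 were found for 3 of the 4 at 14 h and 2 at 16 h, with medians of 0.21 and -0.02. BRN2 went the other way, with -0.30 at 14 h and -0.49 at 16 h. Of 5 leaf markers 2 at 14 h and 1 at 16 h were lower. At 2.5 h no marker passed in edgeR, 3 had an unadjusted p under 0.05 and DESeq2 called 3, beside 0.323%, 10.8% and 8.85% of all genes. No marker gene had a mean level of 0 over the libraries. The part of these shifts in the values of IAA2, IAA29 and IAA30 was not tested.

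Among 14996 genes above the median level, those whose log2 level followed IAA29 most closely over the 12 libraries were AT3G03215 (Pearson r = 0.994), GLX2-5 (0.991) and AT3G27180 (0.990). For IAA2 they were AT5G38344 (0.933), AT3G22910 (0.917) and AT3G02695 (0.912), and for IAA30 XIJ (0.928), AT3G53270 (0.917) and AT5G37310 (0.912). None shared a region with its member. All points share the same libraries and their depths, and for IAA29 the library at 0 sets most of the range.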

How the data were processed

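ATAC-seq libraries of 4 groups of 3 were analysed. The authors deposited whole-number read counts per accessible region, 1 table per library. The authors' deposited tables for 2.5 h and 14 h list for each region a normalized signal per library, the distance to the closest transcription start, and the authors' log2 fold change and p-value. The submitters' processing notes name Bowtie2, SAMtools, MACS2, DESeq2, HOMER and the TAIR10 build. How reads were counted, and whether duplicates were removed, is not given in the sources used here, so copies of 1 fragment may be counted more than once. The 14 h signal came out as whole reads divided by a size factor (100% of values within 0.01). Gene names in the 16 h table were left out, because only 32.6% of the 28197 regions it shares with the 14 h table carry the same name in both.

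Each of 6 comparisons used edgeR 4.0.16 (R 4.3.3) on its 6 libraries and on regions whose coordinates were the same in the 2 groups: TMM, filterByExpr, the quasi-likelihood test, and Benjamini-Hochberg adjustment over all features, with a threshold of 0.05. Gene values are sums over regions. Gene and region fits are scaled separately from the CPM shown, which use the 99054 regions of all sets. Fitted changes are relative to TMM. Scripts were tested on simulated data. Alternatives were DESeq2 1.42.0, its size factors, total counts, no filter, a replicate block, all 12 libraries in 1 fit, each library left out, regions within 1 kb of a start, and all regions of the 14 h table. Depths and count floors cover counting error only, and PCR copies are not independent molecules.

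The members, gene lists and tests were chosen with earlier results of these data known. All 10 members are named, with the strongest region of each, every member region past the threshold, MP, and up to 3 genes past the threshold per list and comparison. SHY2, IAA20, BDL and IAA14 regions outside that rule, the other shared regions of IAA2, IAA29 and IAA30, and the regions of 1 set alone were singled out after their values were seen. Replicates of a group differed by more than sampling noise (chi-square per degree of freedom at least 2.51).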

Additional observations from a re-analysis of the deposited data

How the results depend on the processing

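The 2.5 h and 16 h libraries were the shallowest, and many member regions held few reads in them. Of 96 member values 28 were 0 at 2.5 h and 0 at 16 h. The part of depth in these zeros was not tested. DESeq2, its size factors, total counts and no filter left the count of member genes called in each comparison the same or within 1.5 times. With all 12 libraries in the fit, the count of members called was 0 at 14 h and 0 at 16 h for genes, and 0 at 16 h for regions. It was 1 region for 2.5 h against uncut roots (lower) and 1 for 14 h against 2.5 h (higher). All genes called in that fit were 479 instead of 3628 for 14 h, and 244 instead of 2860 for 16 h. With sums within 1 kb of a start, the count of member genes was 0 at 14 h and 1 at 16 h. This limit leaves the counts of IAA29 and IAA2 themselves unchanged. For regions at 14 h, DESeq2 called 3 of 33, beside 18.8% of all regions. The fit on all regions of the 14 h table called 13 of 47, beside 30.7%, and 11 regions called higher were found from 14 h reads alone, so their direction follows from how they were found.

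Replicate numbers are shared between groups, but nothing in the labels ties them. Over the 18 same-number pairs the correlation of deviations from the group mean was between -0.0507 and 0.00969 and in 3 of the 18 the regenerating or later library correlated best with its own number, so no pairing was taken. With the replicate block, the member genes called were 0 at 14 h and 0 at 16 h, and the member regions 1 at 16 h.

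Leaving out 1 library at a time gave 0 to 4 member genes and 0 to 3 member regions at 14 h, 0 to 3 genes and 0 to 5 regions at 16 h, and 0 to 3 regions at 2.5 h, and 0 in every comparison between times. Signs turned for IAA14 at 14 h (0.0084 with total counts, -0.31 to 0.0585 with a library left out) and at 16 h (-0.41 to 0.0512), for AXR3 (-0.0512 to 0.53) and IAA20 (-0.46 to 0.16) at 16 h, for IAA30 at 2.5 h (-0.11 to 1.29), and for IAA30 between 2.5 h and 14 h (0.12 within 1 kb of a start, -0.87 to 0.53 with a library left out). The causes were not tested.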
